A study of Rattus norvegicus with 15 samples.

Results

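App, Apoe and Mapt were followed through every library of the series. They were chosen by their Ensembl identifiers, in that order ENSRNOG00000006997, ENSRNOG00000018454 and ENSRNOG00000005133, and make up 3 of the 30560 gene identifiers in the count tables. The deposited tables pair no identifier with a symbol, so the names are those given with the 3 identifiers, and all 3 symbols are rat protein-coding genes in the RefSeq table. All 3 genes had counts in each of the 15 libraries and passed the expression filter in every comparison.

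App encodes the amyloid precursor protein, a membrane protein from which the secretases cut the amyloid-β peptide. Apoe encodes apolipoprotein E, the lipid carrier that in brain is made mostly by astrocytes and microglia and whose common human forms differ in Alzheimer disease risk. Mapt encodes tau, a microtubule-binding protein of neurons that oligodendrocytes also make, and which forms the neurofibrillary tangles of the disease. In oligodendrocytes the RNA-binding protein hnRNP A2 is known for carrying myelin mRNA in transport granules towards the processes.

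The libraries came from primary oligodendrocyte cultures of Sprague-Dawley rats. Precursor cells were shaken off mixed glial cultures from the forebrain cortex of newborn animals (P0 to P2) and kept for 3 days in a defined maturation medium. Cultures were controls or received oligomers of the synthetic amyloid-β peptide of residues 1 to 42; the sources used here give neither dose nor duration. Each treatment has 3 input libraries, made from total RNA of the cells, and 3 libraries of RNA recovered with an antibody to hnRNP A2. A further 3 libraries came from an IgG immunoprecipitation labelled as a pool of both treatments. Within each group the libraries are numbered 2, 3 and 4. The series text calls the replicates biological, but whether a number marks 1 animal, litter or culture is not stated. The cultures are enriched rather than sorted, and the labelled cell type was not checked against markers because no other identifier has a name here.

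Gene counts per library ranged from 14773400 to 25751522 for input and from 28056346 to 33168494 for hnRNP A2, but were 81463, 4096829 and 1895870 in IgG replicates 2, 3 and 4. The file names of the IgG libraries carry the mark of amyloid-β, whereas the labels call them a pool; the labels were followed. Levels are given as CPM, a share of the library's gene counts, after scaling with TMM factors, which align the bulk of genes between libraries. A lower share need not mean fewer molecules. The tables give no transcript lengths, so the levels of the 3 mRNAs were not compared with one another.

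**Figure D1:**
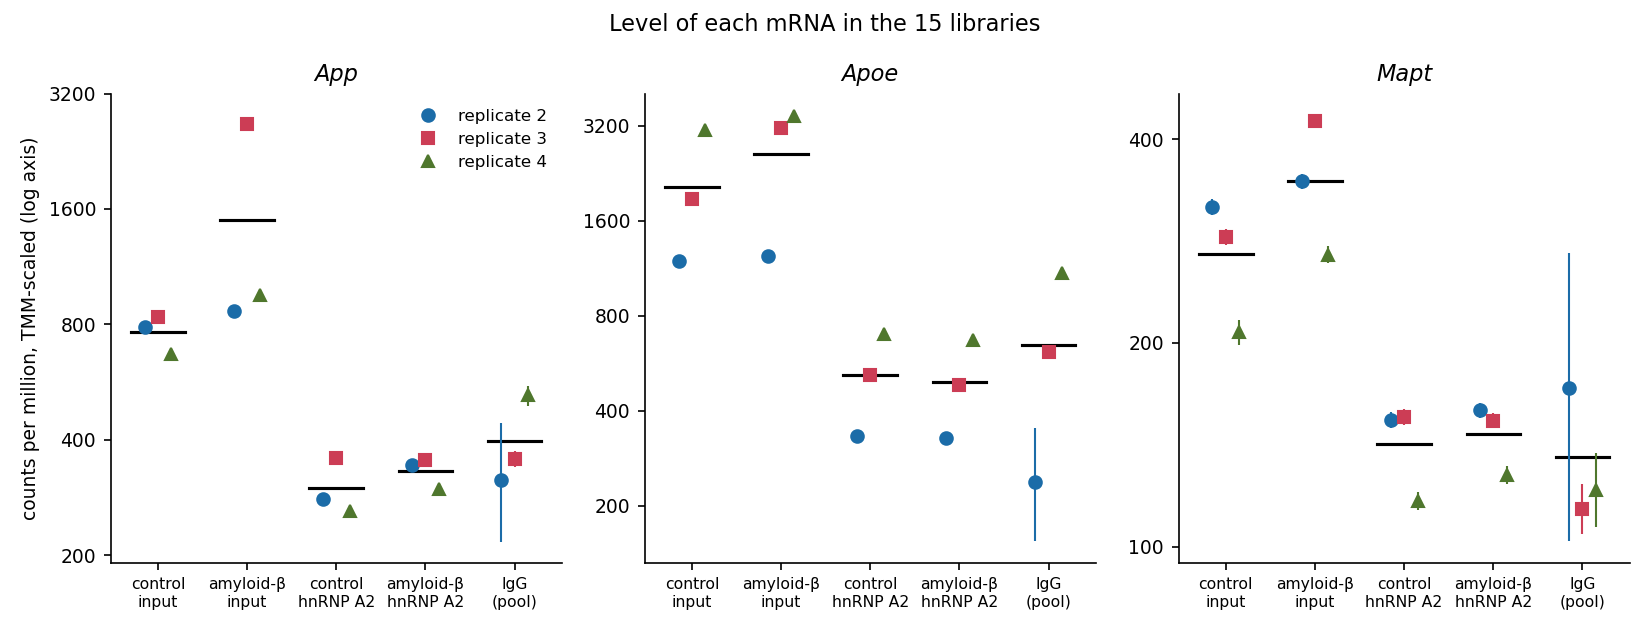
Level of App, Apoe and Mapt (TMM-scaled CPM, log axis) in the 15 libraries, with 1 point per library, the marker giving the replicate number, vertical lines the exact 95% Poisson interval of the count and horizontal bars the group mean. On this TMM scale all 3 mRNAs sit higher in the 6 input libraries than in the hnRNP A2 and IgG libraries, a separation from IgG that is lost with library sizes alone (and for Mapt from hnRNP A2 too), and App in amyloid-β input replicate 3, at 2663 CPM, stands above the other input libraries.

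App had 790, 836 and 671 CPM in control input replicates 2, 3 and 4, and 869, 2663 and 954 CPM in the amyloid-β inputs of those numbers. In the control hnRNP A2 libraries it had 280, 358 and 260 CPM, and in the amyloid-β hnRNP A2 libraries 343, 355 and 298 CPM. In IgG it had 315, 356 and 522 CPM. On this scale each input library was above each hnRNP A2 and IgG library, while the hnRNP A2 and IgG values overlapped. The share of all genes that separate in this way was not counted, here or for Apoe and Mapt below, so the separation is not shown to be particular to these mRNAs. With library sizes alone the inputs stayed above hnRNP A2, but control inputs 4 and 2 (456 and 548 CPM) fell below IgG replicate 4 (572 CPM). The order of the group means was amyloid-β input (1495 ± 1012, SD, n = 3), control input (766 ± 85.3, SD, n = 3), IgG (398 ± 110, SD, n = 3), amyloid-β hnRNP A2 (332 ± 29.8, SD, n = 3) and control hnRNP A2 (299.5 ± 51.5, SD, n = 3). The last 3 do not differ beyond their spread, and the wide SD of the amyloid-β input comes from replicate 3.

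Apoe had 1189, 1875 and 3099 CPM in control input replicates 2, 3 and 4, and 1236, 3150 and 3437 CPM in the amyloid-β inputs. In the control hnRNP A2 libraries it had 332, 519 and 702 CPM, and in the amyloid-β hnRNP A2 libraries 329, 485 and 670 CPM. In IgG it had 239, 613 and 1090 CPM. Input again lay above both kinds of immunoprecipitation without overlap on the TMM scale, and the IgG values ran from below to above the whole range of the hnRNP A2 libraries. With library sizes alone input stayed above hnRNP A2, but control and amyloid-β input 2 (825 and 1010 CPM) lay below IgG replicate 4 (1193 CPM). Group means were 2608 ± 1196 CPM (SD, n = 3) in amyloid-β input, 2055 ± 968 (SD, n = 3) in control input, 647 ± 426 (SD, n = 3) in IgG, 518 ± 185 (SD, n = 3) in control hnRNP A2 and 494 ± 171 (SD, n = 3) in amyloid-β hnRNP A2. The 2 inputs do not differ beyond their spread, and neither do the 3 immunoprecipitation groups.

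The Apoe level followed the replicate number. Replicate 4 had the highest and replicate 2 the lowest value in 5 of 5 groups, and the span among the control inputs was wider than any treatment difference of this gene within a replicate number. Mapt was lowest in replicate 4 in 4 of 5 groups, IgG being the exception, and App was highest in replicate 3 in 4 of 5 groups. How many of all genes keep such an order was not counted, so it is not shown to be particular to these mRNAs. The Apoe value of IgG replicate 2 rests on 25 counts. What differs between the replicate numbers is not recorded in the labels.

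Mapt had 317, 287 and 207 CPM in control input replicates 2, 3 and 4, and 347, 426 and 270 CPM in the amyloid-β inputs. In the control hnRNP A2 libraries it had 154, 155 and 117 CPM, and in the amyloid-β hnRNP A2 libraries 159, 154 and 127 CPM. In IgG it had 172, 114 and 121 CPM. With TMM, input was above both kinds of immunoprecipitation without overlap, and IgG overlapped the hnRNP A2 libraries. With library sizes alone the separation was lost for both, since control input 4 (141 CPM) lay below the highest hnRNP A2 library (197 CPM) and below IgG replicate 2 (221 CPM). The group means were 348 ± 77.9 CPM (SD, n = 3) in amyloid-β input, 270 ± 56.8 (SD, n = 3) in control input, 147 ± 16.9 (SD, n = 3) in amyloid-β hnRNP A2, 142 ± 21.9 (SD, n = 3) in control hnRNP A2 and 136 ± 31.5 (SD, n = 3) in IgG. Neighbours within input, and within the immunoprecipitations, do not differ beyond their spread.

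The values of IgG replicate 2 rest on few reads. It held 33 App, 25 Apoe and 18 Mapt counts, so the exact 95% Poisson intervals were 217 to 442 CPM for App, 154 to 352 for Apoe and 102 to 272 for Mapt. They cover counting error only. In the other 14 libraries the lowest count was 252, for Mapt in IgG replicate 4.

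The comparison of the hnRNP A2 immunoprecipitation with input asks which RNAs take a larger or smaller share with the protein than in the cell. All 3 mRNAs were lower with hnRNP A2. The folds below are on the TMM scale and are not plain shares of the gene counts. With library sizes alone the falls in control cells were smaller (log2 fold change -0.73 for App, -1.35 for Apoe and -0.30 for Mapt), and only Apoe passed. In control cells App was 2.54-fold lower in the hnRNP A2 libraries than in input (log2 fold change -1.34, SE 0.38, edgeR adjusted p = 0.0131). Apoe was 4.01-fold lower (log2 difference -2.0, SE 0.47, edgeR adjusted p = 0.00496), and Mapt 1.89-fold lower (-0.92, SE 0.24, edgeR adjusted p = 0.00904). Of the 15303 genes tested, 18.4% passed as lower. Among the 1964 genes with a mean of at least 100 CPM, a group set after the values were seen because all 3 mRNAs are abundant, the share was 25%.

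The same held after amyloid-β. App was 4.60-fold lower than its input (log2 fold change -2.20, SE 0.39, edgeR adjusted p = 0.000696), Apoe 5.40-fold lower (-2.43, SE 0.48, edgeR adjusted p = 0.00151) and Mapt 2.40-fold lower (-1.26, SE 0.24, edgeR adjusted p = 0.00124). Here 20.5% of genes passed as lower, and 25.4% of those with a mean of at least 100 CPM. The App value leans on amyloid-β input replicate 3: without that library its log2 fold change was -1.44 and still passed (edgeR adjusted p = 0.000432; 2.00e-11 to 0.00606 over all alternatives).

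Pair by pair, each mRNA was lower in the hnRNP A2 library than in the input of its number and treatment, 6 times out of 6. The amyloid-β libraries are matched here by number only, since their deviations correlated at 0.02 to 0.48 and were not read as paired. With TMM each input lay above each hnRNP A2 library, so the direction holds for any matching, but the size of each fall does not. In the control pairs of replicates 2, 3 and 4 App was 2.82-, 2.34- and 2.58-fold lower, Apoe 3.58-, 3.61- and 4.41-fold, and Mapt 2.06-, 1.84- and 1.78-fold. In the amyloid-β pairs App was 2.53-, 7.51- and 3.20-fold lower, Apoe 3.76-, 6.50- and 5.13-fold, and Mapt 2.18-, 2.77- and 2.12-fold. The control pairs were close to one another, and the amyloid-β pair of replicate 3 had the largest fall for each mRNA. Across all genes tested, 2.83% had a lower fold change than Apoe in control cells, 9.74% a lower one than App and 18.9% a lower one than Mapt.

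**Figure D2:**
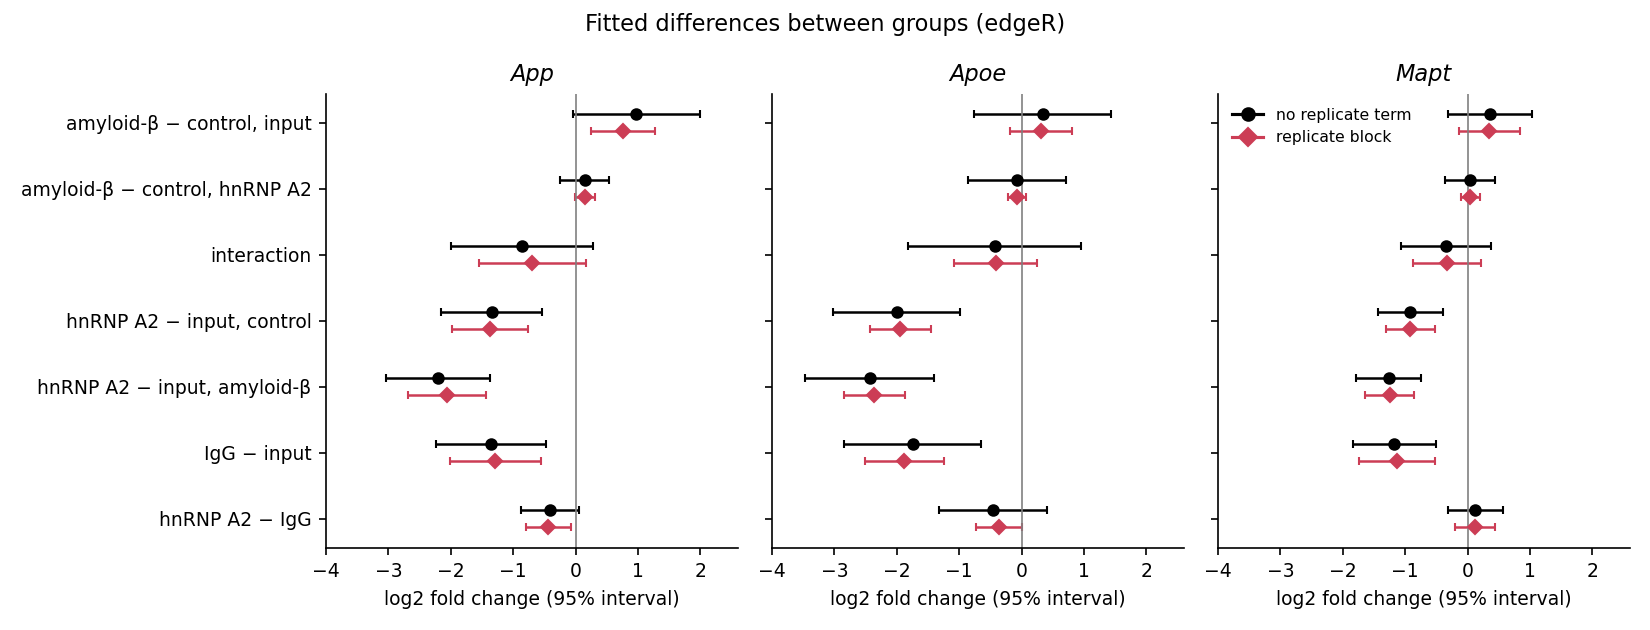
Fitted log2 fold changes of App, Apoe and Mapt in the 7 comparisons, as points with 95% intervals, from edgeR without a replicate term (black circles) and with that term added (red diamonds). The intervals of hnRNP A2 minus input and of IgG minus input lie below 0 for all 3 mRNAs, and without a replicate term those of hnRNP A2 minus IgG and of the treatment differences include 0.

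The control comparison is the less firm one for App and Mapt. Without control hnRNP A2 replicate 4, App lay at -1.24 (edgeR adjusted p = 0.0585; 5.61e-06 to 0.141 over all alternatives) and Mapt -0.78 (edgeR adjusted p = 0.0532; 3.50e-07 to 0.400 over all alternatives), so both missed the threshold. Apoe kept its call under each alternative run, with log2 fold changes between -2.29 and -1.29.

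IgG libraries show what the procedure recovers without the hnRNP A2 antibody, and they too held less of each mRNA than input. Against the mean of both inputs, on the TMM scale, App in IgG was 2.56-fold lower (log2 difference -1.36, SE 0.42, edgeR adjusted p = 0.0222), Apoe 3.35-fold lower (-1.74, SE 0.52, edgeR adjusted p = 0.0188) and Mapt 2.25-fold lower (-1.17, SE 0.31, edgeR adjusted p = 0.0106). Of 14205 genes tested, 16.3% passed as lower, and 23.2% of those with a mean of at least 100 CPM. These calls rest on 3 IgG libraries of very unequal depth. App lost its call without IgG replicate 2 or 3 (edgeR adjusted p = 0.0510 and 0.0694; 0.000235 to 0.0999 over all alternatives). Apoe lost it without IgG replicate 3 (edgeR adjusted p = 0.0626; 4.40e-12 to 0.0626 over all alternatives) and Mapt without IgG replicate 4 (edgeR adjusted p = 0.0577; 4.69e-05 to 0.132 over all alternatives).

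Set directly against IgG, none of the 3 mRNAs passed as enriched or depleted with hnRNP A2, while 13.6% of 15304 genes passed in either direction. Among genes with a mean of at least 100 CPM, 10.5% passed as lower and 10.3% as higher. On the TMM scale App was 1.33-fold lower with hnRNP A2 (log2 difference -0.41, SE 0.21, 95% interval -0.88 to 0.05, edgeR adjusted p = 0.213). The log2 difference was -0.46 for Apoe (SE 0.39, 95% interval -1.32 to 0.40, edgeR adjusted p = 0.469) and 0.12 for Mapt (SE 0.20, 95% interval -0.32 to 0.56, edgeR adjusted p = 0.733). The upper bounds of these TMM intervals correspond to 1.04-fold, 1.32-fold and 1.48-fold more of App, Apoe and Mapt with hnRNP A2 than with IgG. They depend on the scaling and are no ceiling: with library sizes alone the upper log2 bounds were 0.08, 0.41 and 0.69. A p that misses the threshold does not show that the shares are equal. With the replicate number as a term 35.2% of genes passed, and still none of the 3 (App -0.44, edgeR adjusted p = 0.0590; 0.000423 to 0.889 over all alternatives); App passed in 3 and Apoe in 2 of the fits that also left a library out.

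Taking 1 treatment at a time gave the same picture. In control hnRNP A2 libraries against IgG the log2 fold changes were -0.49 for App, -0.42 for Apoe and 0.10 for Mapt. In amyloid-β hnRNP A2 libraries they were -0.34, -0.50 and 0.14, and none of the 6 passed. IgG replicate 4 carries much of the App and Apoe values. Without it App had a log2 fold change of -0.14 and Apoe turned to 0.13, neither passing. The same-numbered ratios show this as well: control hnRNP A2 over IgG was -0.17, 0.0060 and -1.0 on the log2 scale for App in replicates 2, 3 and 4, 0.48, -0.24 and -0.63 for Apoe, and -0.16, 0.45 and -0.06 for Mapt. On this scale no mRNA kept 1 direction in all 3 numbers, whereas with library sizes alone App was lower than IgG in all 3 (-0.22, -0.020 and -0.93).

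How far each mRNA lies below input depends on how the libraries are scaled. With TMM the median log2 fold change of all genes between the control hnRNP A2 libraries and input was 0.02, and with library sizes alone it was 0.65. The numbers called higher and lower went from 2908 and 2814 to 5598 and 1042, and in amyloid-β from 2845 and 3137 to 4766 and 1591. Against control input App then lay at -0.73 (SE 0.39, edgeR adjusted p = 0.141) and Mapt -0.30 (SE 0.27, edgeR adjusted p = 0.400), and both lost the call. Apoe, at -1.35, kept it. A change of scaling shifts all genes by nearly the same amount, so the distance from the median of all genes could hardly move. For App it was -1.37 with TMM and -1.38 with library sizes alone, for Apoe -2.03 and -2.0, and for Mapt -0.94 and -0.95. These distances are therefore no check of the scaling.

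Between IgG and input the median of all genes went from -0.11 to 0.33, and the numbers called higher and lower from 2025 and 2316 to 3385 and 1213. App and Mapt lost the call with library sizes alone (log2 fold changes -0.89 and -0.69, edgeR adjusted p = 0.0999 and 0.132) and Apoe kept it at -1.29. Between hnRNP A2 and IgG that median went from 0.07 to 0.18, and called genes from 1192 higher and 892 lower to 1551 and 648; none of the 3 mRNAs passed on either scale. In the fits the direction of all 3 against input was down with each of the 3 scalings. By replicate number and with library sizes alone, IgG over control input was up for App in replicate 4 (log2 ratio 0.33) and for Mapt in replicate 2 (0.0056). Every other same-numbered ratio to input was down.

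**Figure D3:**
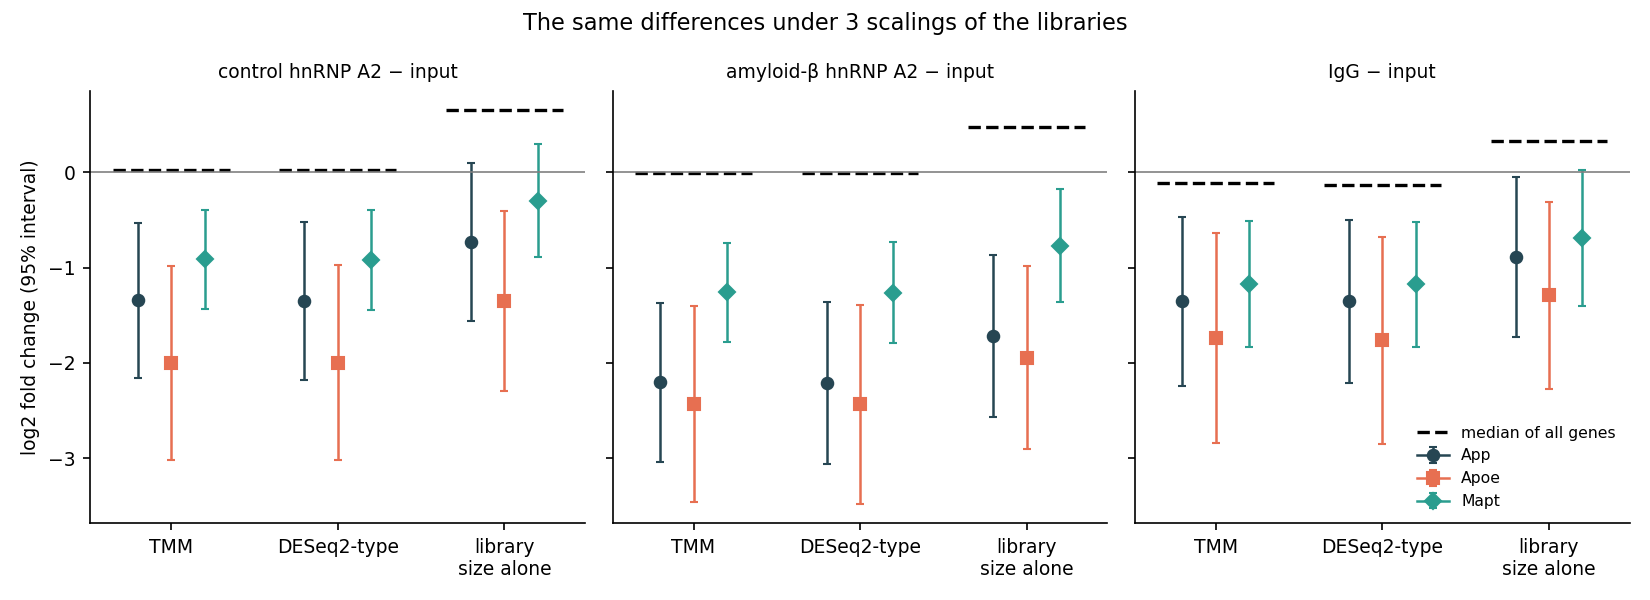
Log2 fold changes with 95% intervals of App, Apoe and Mapt against input under TMM, DESeq2-type size factors and library size alone, with the median of all genes tested as a dashed line. The median moves from 0.02 to 0.65 in control cells with library size alone. The 3 mRNAs move up with it, since a change of scaling shifts all genes nearly alike.

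A ratio of 2 mRNAs inside 1 library needs no scaling and shows whether they were lost evenly. These ratios of raw counts also hold the lengths of the transcripts, so only their change between libraries is read. In the control inputs of replicates 2, 3 and 4 the Apoe to App ratio was 1.51, 2.24 and 4.62, and in the hnRNP A2 libraries of those numbers 1.18, 1.45 and 2.70. It was lower with hnRNP A2 in each control pair. With amyloid-β it was 1.42, 1.18 and 3.60 in input and 0.958, 1.37 and 2.24 with hnRNP A2, lower in replicates 2 and 4 and higher in replicate 3, where App was high in input. In IgG it was 0.758, 1.72 and 2.09, below the control input of its number each time. Against amyloid-β input the IgG ratio was lower in replicates 2 and 4 and higher in replicate 3. The amyloid-β and IgG libraries are matched to input by number only.

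The Mapt to Apoe ratio was higher in the hnRNP A2 library than in the input of its number and treatment in all 6 pairs. Those of amyloid-β, and IgG with input below, are matched by number only. The ratio was 0.267, 0.153 and 0.0669 in control input and 0.464, 0.299 and 0.166 in control hnRNP A2. With amyloid-β it was 0.280, 0.135 and 0.0786 in input and 0.484, 0.317 and 0.190 with hnRNP A2. In IgG it was 0.720, 0.186 and 0.111, above the input of its number in each case, and above the hnRNP A2 libraries in replicate 2 and below them in replicates 3 and 4. The Mapt to App ratio ran from 0.160 to 0.402 in the 6 inputs and, without overlap, from 0.427 to 0.549 in the 6 libraries of hnRNP A2. In IgG it was 0.545, 0.319 and 0.232, so that replicates 3 and 4 fell within the input range. Apoe thus fell the most between input and hnRNP A2, then App, then Mapt, in all 3 control pairs. From control input to IgG Apoe also fell the most in all 3 numbers (log2 ratios -2.32, -1.61 and -1.51), while the order of App and Mapt varied. From amyloid-β input to IgG Apoe fell the most in replicates 2 and 4, and App in replicate 3. These differences between mRNAs are described and not tested.

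**Figure D4:**
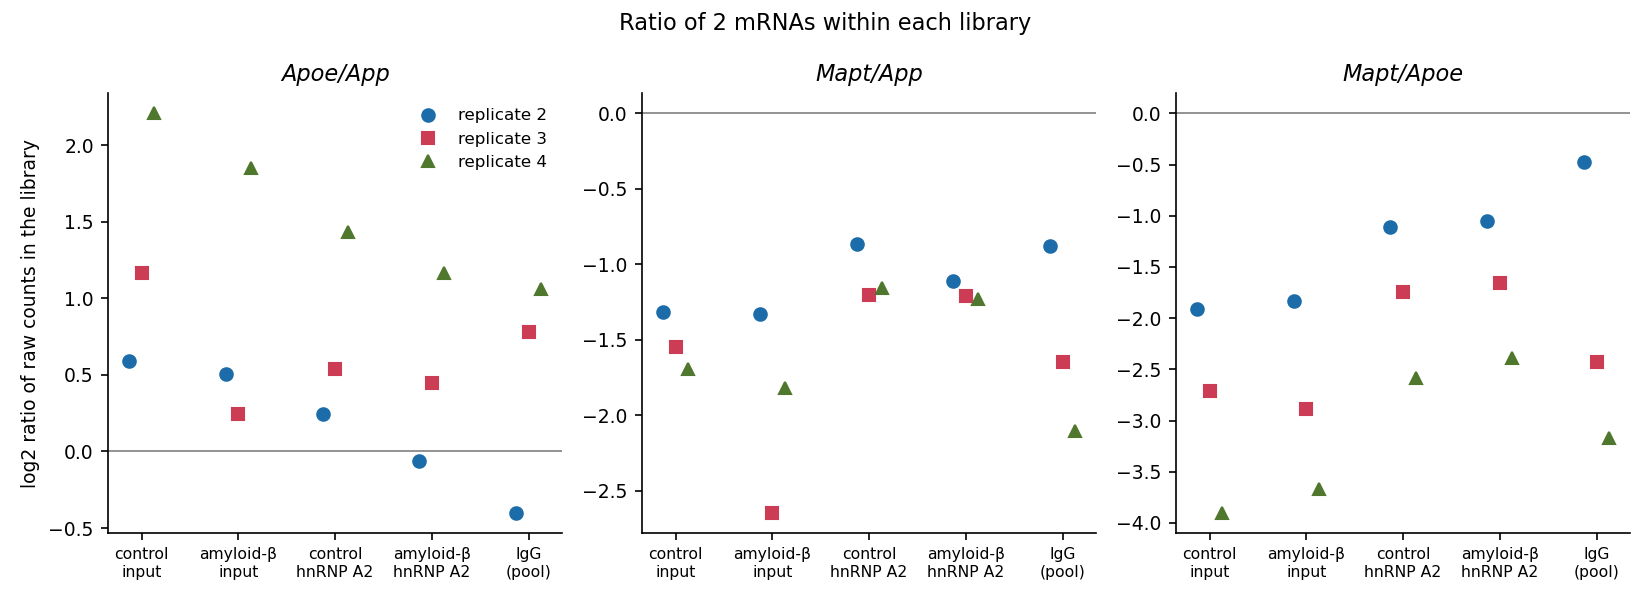
Log2 ratio of raw counts of Apoe to App, Mapt to App and Mapt to Apoe within each of the 15 libraries, with the marker giving the replicate number. Mapt gains on Apoe and on App in the hnRNP A2 libraries against input, and within a group the Mapt to Apoe ratio is highest in replicate 2 and lowest in replicate 4.

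The treatment comparison asks whether amyloid-β changed these mRNAs in the cell. None passed in input. Of 13793 genes, edgeR called 0 (0%), 188 having an unadjusted p below 0.05; both DESeq2 and voom called 0. App had a 1.96-fold higher mean (log2 fold change 0.97, SE 0.46, 95% interval -0.05 to 2.00, edgeR adjusted p = 0.954). The log2 difference was 0.34 for Apoe (SE 0.49, 95% interval -0.76 to 1.44, edgeR adjusted p = 0.954) and 0.36 for Mapt (SE 0.30, 95% interval -0.32 to 1.03, edgeR adjusted p = 0.954). The intervals reach to 3.99-fold for App, 2.71-fold for Apoe and 2.05-fold for Mapt, so changes up to those sizes lie within them. They come from the fit without a replicate term. With that term the log2 difference of App was 0.76 (95% interval 0.24 to 1.27, edgeR adjusted p = 0.216). The App interval then lay above 0, but App did not pass after adjustment over all genes. The intervals with that term were -0.19 to 0.80 for Apoe and -0.14 to 0.84 for Mapt, and neither passed. In bulk RNA, fewer cells of a type and less RNA per cell cannot be told apart.

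In input, each amyloid-β library nevertheless held more of all 3 mRNAs than the control of its number. App was 1.10-, 3.18- and 1.42-fold higher in replicates 2, 3 and 4, Apoe 1.04-, 1.68- and 1.11-fold, and Mapt 1.09-, 1.49- and 1.30-fold. Replicate 3 had the largest ratio for all 3 mRNAs. App held 59731 counts in amyloid-β input replicate 3 against 16256 in its control, and by count it ranked 21 among all genes there and 118 in the control. In that pair 212 of 8976 genes with a mean of at least 10 CPM had a larger ratio than App, compared with 2403 in replicate 2 and 914 in replicate 4. For Apoe 54.5%, 80.7% and 61.6% of these genes had a lower ratio in replicates 2, 3 and 4, so it lay near the middle in replicate 2. For Mapt the shares were 70.8%, 74.9% and 82.0%. How many of all genes rose in all 3 pairs was not counted. Without amyloid-β input replicate 3 the log2 fold change of App was 0.23, with an edgeR adjusted p of 1.00 (0.0420 to 1.00 over all alternatives). With voom, which weights libraries by quality, the log2 differences were 0.37 for App, 0.64 for Apoe and 0.091 for Mapt, so that Apoe and not App had the largest of the 3.

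**Figure D5:**
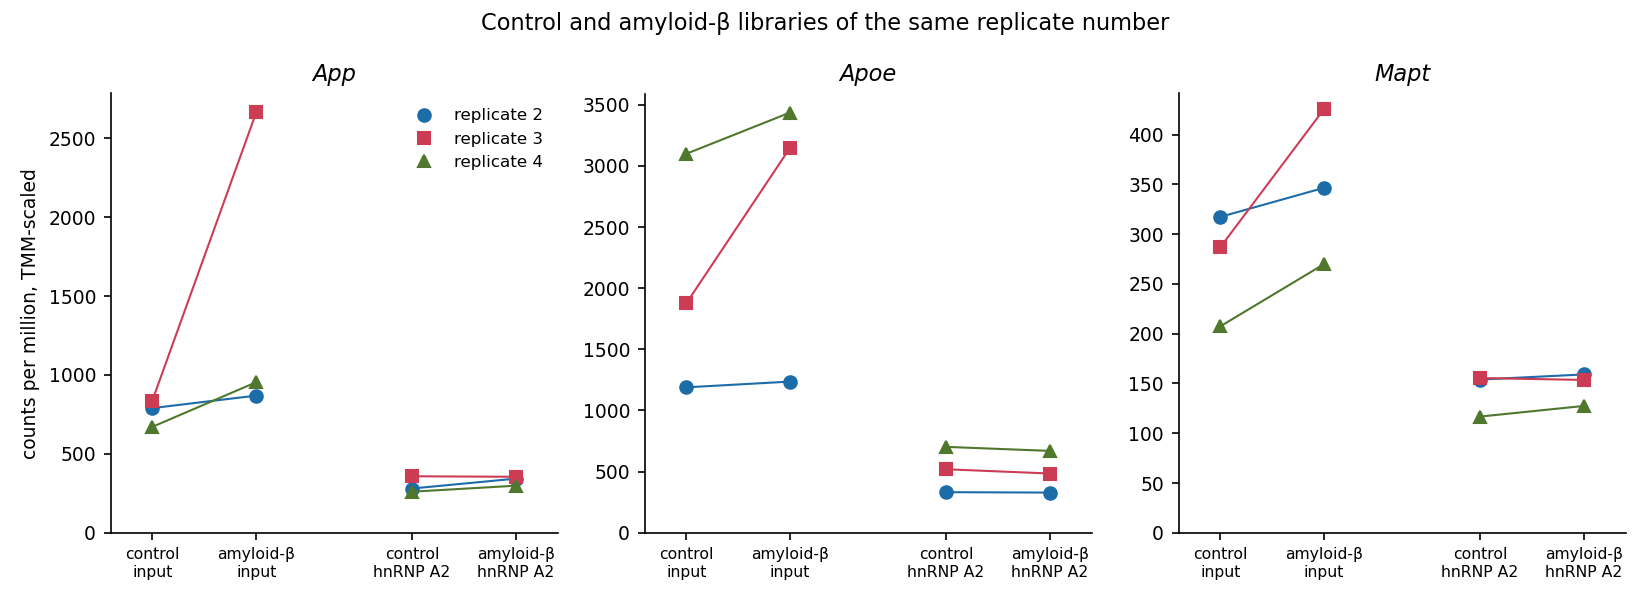
App, Apoe and Mapt (TMM-scaled CPM, axis from 0) in control and amyloid-β libraries joined by replicate number, for input on the left and hnRNP A2 on the right of each panel. Every input line rises, the steepest being replicate 3. The hnRNP A2 lines look nearly flat on this axis, although App in replicate 2 was 1.22-fold its control there and 1.10-fold in input.

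In the hnRNP A2 immunoprecipitation the treatment difference was small and did not pass for any of the 3 mRNAs. Of 15118 genes, edgeR called 0 (0%), 42 having an unadjusted p below 0.05; both DESeq2 and voom called 0. With the replicate number as a term edgeR called 1 (0.00661%), which was none of the 3. The log2 difference was 0.14 for App (SE 0.17, 95% interval -0.25 to 0.54, edgeR adjusted p = 1.00), -0.07 for Apoe (SE 0.33, 95% interval -0.85 to 0.71, edgeR adjusted p = 1.00) and 0.04 for Mapt (SE 0.17, 95% interval -0.36 to 0.44, edgeR adjusted p = 1.00). With the replicate term the 95% intervals were narrower, at -0.0038 to 0.31 for App, -0.215 to 0.079 for Apoe and -0.11 to 0.20 for Mapt. Pair by pair App was 1.22-, 0.991- and 1.15-fold its control, Apoe 0.990-, 0.933- and 0.953-fold, and Mapt 1.03-, 0.987- and 1.09-fold. The high App level of amyloid-β input replicate 3 was not seen in the hnRNP A2 library of that number, where App had 355 CPM with amyloid-β and 358 CPM in control. Those amyloid-β libraries are matched by number only, since their deviations correlated at 0.02. Whether they hold RNA of the same cells is not shown.

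Whether amyloid-β altered the hnRNP A2 to input ratio was tested as an interaction. The log2 differences were -0.86 for App (SE 0.52, 95% interval -1.99 to 0.27), -0.43 for Apoe (SE 0.64, 95% interval -1.82 to 0.96) and -0.35 for Mapt (SE 0.34, 95% interval -1.07 to 0.38), each with an edgeR adjusted p of 1.00. Of 15303 genes, edgeR called 0 (0%), 125 having an unadjusted p below 0.05; both DESeq2 and voom called 0. Without amyloid-β input replicate 3 the App value was -0.094. With each library left out it ran from -1.15 to -0.094 for App, from -0.89 to -0.15 for Apoe and from -0.49 to -0.13 for Mapt, and with voom it was -0.22, -0.78 and -0.0086.

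Over the 15 libraries, the gene whose log2 CPM followed each mRNA most closely was taken from 8975 others with a mean of at least 10 CPM, and is given by identifier. For App it was ENSRNOG00000020412 (Pearson r = 0.989), for Apoe ENSRNOG00000010890 (r = 0.980) and for Mapt ENSRNOG00000002636 (r = 0.981). The libraries share depth, kind and replicate number, and most of the span is between input and immunoprecipitation, so these values only describe likeness. Without IgG replicate 2 the partners of Apoe and Mapt stayed first, and that of App came to place 3 with the same r of 0.989.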

How the data were processed

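The deposited count tables hold raw counts per gene identifier, 1 table per library, not normalized by the authors. DESeq2, HTSeq, STAR 2.7.1 and R 4.2.2 are named, without roles, per the submitters' processing notes. A kit that keeps strand was used on 4 to 10 ng of RNA, per the labels' protocols. Neither build, annotation nor the strand setting of counting is stated in the sources used here. In RefSeq's GRCr8 table App overlaps 1 lncRNA gene, Mapt 3 and Apoe none, so reads shared with them are uncertain. The 5 summary rows that name no gene held 65.5% to 91.4% of records and were left out.

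Fits ran over all genes with edgeR 4.0.16 in R 4.3.3 (TMM within each fit, default filter, quasi-likelihood F test, Benjamini-Hochberg at 0.05, no replicate term). The treatment comparisons used their own 6 libraries, hnRNP A2 and input 12 together, and each IgG comparison 9. SE is the log2 fold change divided by the square root of F. CPM used TMM over 15 libraries. As alternatives, voom in limma 3.58.1, DESeq2 1.42.0, other scalings and filters, a common fit, the replicate block and each library left out were run. The scripts were tested on simulated data.

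The members and lists were chosen with earlier results of these data known. Named genes were the 3 members and, for each, the gene of highest correlation over 15 libraries. The lists of amyloid precursor processing, apolipoprotein E receptor, tau kinase and cell type marker genes were not used, because no other identifier could be paired with a symbol.

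Replicate numbers are in the titles. Deviations of same-numbered libraries from their group means correlated at 0.54 to 0.68 between the treatments in input, 0.74 to 0.93 in hnRNP A2, 0.31 to 0.61 between control hnRNP A2 and input, and 0.16 to 0.38 between hnRNP A2 and IgG, and were read as paired. Amyloid-β hnRNP A2 and input (from 0.02) and IgG and input (from -0.13) were not. Libraries within a group all differed by more than sampling noise (chi-square per degree of freedom at least 3.62).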

Additional observations from a re-analysis of the deposited data

Results flagged for a closer look

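The Apoe ratios between treatments pointed in opposite directions in the 2 kinds of library. Its mean log2 ratio of amyloid-β to control in input was 0.32 ± 0.38 (SD, n = 3), above 0 in 3 of 3 same-numbered pairs. For the hnRNP A2 libraries the mean was -0.061 ± 0.044 (SD, n = 3), below 0 in 3 of 3. Of 8976 genes with a mean of at least 10 CPM, 54.5%, 80.7% and 61.6% had a lower ratio than Apoe in input replicates 2, 3 and 4. In hnRNP A2 the shares were 44.2%, 24.0% and 31.3%, so replicate 2 lay near the middle of all genes in both. How many genes show such opposite signs was not counted. The directions of the Apoe ratios in the 2 kinds of library were the same with library sizes alone. The difference between the 2 was tested as the interaction and did not pass (log2 difference -0.43, SE 0.64, edgeR adjusted p = 1.00), and the ratios in the hnRNP A2 libraries are small.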

How the results depend on the processing

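Of the tests of the 3 mRNAs under the listed alternatives, 357 kept direction and side of the threshold, 10 lost the call and 5 changed sign. Only comparisons of hnRNP A2 or IgG with input had a call to lose. Many of the 357 belong to the other comparisons, so this count does not measure how firm the calls are. With library sizes alone the log2 fold change against control input was -0.73 for App and -0.30 for Mapt. For IgG against input it was -0.89 and -0.69, and all of these values were no longer past the threshold. The all-gene median moved up in both comparisons (0.02 to 0.65, and -0.11 to 0.33), and the cause of the lost calls was not tested. Calls were also lost with the replicate block and library sizes alone, added after seeing the data. These were Mapt against control input (-0.27), and App (-0.77) and Mapt (-0.65) in IgG against input. Mean CPM with library sizes alone was 388 for App and 172 for Mapt in amyloid-β hnRNP A2, 166 for Mapt in control hnRNP A2, and 580 for App and 205 for Mapt in control input.

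The replicate block changed no call of the 3 mRNAs. With it App had a log2 fold change of 0.76 (95% interval 0.24 to 1.27, edgeR adjusted p = 0.216) with amyloid-β in input and -0.44 (edgeR adjusted p = 0.0590) for hnRNP A2 against IgG. Called genes went from 0 to 1 between treatments in hnRNP A2 and from 2084 to 5392 against IgG. With the block, DESeq2 called 18 and 5128, and library sizes alone 7 and 5456, and 144 between treatments in input; these were added after seeing the data. Against IgG 1029 genes were called for control hnRNP A2 alone and 1153 for amyloid-β alone.

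With each library left out, amyloid-β against control input lay between 0.23 and 1.27 for App, 0.039 and 0.77 for Apoe and 0.16 and 0.49 for Mapt. App lay between -1.49 and -1.24 for control hnRNP A2 against input, and between -1.69 and -1.05 for IgG against input, where Apoe lay between -2.42 and -1.47 and Mapt between -1.39 and -1.13. Mapt lay between -1.05 and -0.78 for control hnRNP A2 against input. Between treatments in hnRNP A2, Apoe lay between -0.34 and 0.20 and Mapt between -0.089 and 0.14, and against IgG Apoe between -0.79 and 0.13. Signs turned there without control hnRNP A2 replicate 4 (Apoe 0.20, Mapt -0.089), without amyloid-β hnRNP A2 replicate 2 (0.15 and -0.03) and without IgG replicate 4 (Apoe 0.13); the cause was not tested. Called genes lay between 21 and 2428 against IgG and between 2193 and 4806 for IgG against input.

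With the block and each library left out, added after seeing the data, App lay between 0.30 and 1.09 for amyloid-β against control input, where it passed only without amyloid-β input replicate 2 (edgeR adjusted p = 0.0420). Against IgG App lay between -0.73 and -0.04, Apoe between -0.53 and -0.14 and Mapt between -0.052 and 0.32. App passed there without IgG replicate 2 (-0.52) or 3 (-0.73) or control hnRNP A2 replicate 3 (-0.51), Apoe without IgG replicate 2 (-0.53) or 3 (-0.46), and Mapt turned to -0.052 without IgG replicate 3. Called genes lay between 0 and 197 for amyloid-β against control input (135 without control input replicate 2) and between 5624 and 8698 for control hnRNP A2 against input. Between treatments in hnRNP A2 they numbered 31, 19 and 1 without control replicates 4, 2 and 3, and 33, 17 and 1 without those of amyloid-β. Against IgG they numbered 5445, 5308 and 3731 when IgG replicates 2, 3 and 4 were dropped in turn. Dropping hnRNP A2 replicates 4, 2 and 3 gave 4576, 4870 and 4593 for control and 4226, 4703 and 4744 for amyloid-β. Depth limits IgG replicate 2 most, where 3 counts equal 28.6 CPM.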
